A study of Homo sapiens with 8 samples.

Results

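The 32 genes described here encode the steps that carry glucose into the cell, break it down to pyruvate and export the lactate, together with regulators of pyruvate dehydrogenase and 4 targets of the oxygen-sensing factor HIF-1. They were taken by name, with no threshold on a measured value but with earlier results of these data known, out of the 31721 genes in the expression table, and all 32 were found there. Polyadenylated RNA was sequenced from A2780, a long-established human cell line of ovarian carcinoma, exposed for 24 hours to olaparib, to palbociclib, to both drugs (here the combination) or to the solvent DMSO alone. Each of the 4 groups had 2 libraries. Olaparib blocks the DNA repair enzymes PARP1 and PARP2, and palbociclib blocks CDK4 and CDK6, the kinases that let cells pass from G1 into S phase. The labels state neither a dose nor whether the libraries of a group were grown as separate cultures. The p-values therefore reflect the spread between these libraries, part of which may be technical.

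In glycolysis, hexokinase traps glucose as glucose-6-phosphate, phosphofructokinase commits it to breakdown, and the enzymes from aldolase to pyruvate kinase yield ATP and pyruvate. Lactate dehydrogenase then turns pyruvate into lactate, which monocarboxylate transporters carry out of the cell, while pyruvate dehydrogenase sends it to the mitochondrion unless the PDK kinases shut that enzyme off. Many tumour cells make lactate even in the presence of oxygen, and HIF-1 and MYC are known to raise transcription of most genes of this route. The level of every gene is given as FPKM, here fragment counts divided by exon length and by a scaling factor for each library. These factors followed median-of-ratios size factors, not the read totals of the libraries. FPKM is scaled by gene length and so can be set side by side between genes.

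Library depth, recovered from the FPKM values, ran from 20564735 to 34053342 reads, and both combination libraries were shallower than both DMSO libraries. The summed FPKM of all genes also moved with treatment, at 281013 and 284708 with olaparib, 274426 and 275941 with palbociclib, 264453 and 271980 with the combination, and 295620 and 295656 in DMSO. The part of depth in the results was not tested, and the effect of rescaling each library to the same sum is given below. The labels describe the line as epithelial, yet 0 of the 7 epithelial carcinoma markers measured averaged 1 FPKM or more, with EPCAM highest at 0.555 FPKM. Their summed level was 0.530 to 0.646 FPKM with olaparib, 1.11 to 1.12 FPKM with palbociclib, 1.18 to 1.40 FPKM with the combination and 0.423 to 0.453 FPKM in DMSO. All 5 fibroblast markers averaged over 1 FPKM, led by LUM at 44.0 FPKM, with a summed level of 58.1 to 61.3 FPKM with olaparib, 68.1 to 73.7 FPKM with palbociclib, 68.6 to 70 FPKM with the combination and 62.8 to 64.7 FPKM in DMSO, and their part in the results was not tested. Leukocyte, endothelial and erythroid markers all stayed under 1 FPKM. In bulk RNA, fewer cells of a kind and less RNA per cell cannot be told apart.

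With palbociclib and with the combination, genes fell at most steps of the route, and with olaparib alone fewer members passed the test. Of the 3 phosphofructokinase genes 0 fell, where 31.4% and 35.3% of all genes tested fell with palbociclib and with the combination, so 3 genes are too few to set this step apart. LDHA, which makes lactate from pyruvate, fell most of all members under palbociclib and the combination, followed by HK2 and SLC2A1 and then by ENO1 and BNIP3. A few members went the other way, among them the glucose transporter SLC2A3, the regulatory enzyme PFKFB2 and the kinase PDK2. Genes were tested with limma on log2(FPKM + 1), a scale that shrinks the change of genes with low FPKM, where the mean over the 8 libraries reached 1 FPKM. That left 30 members tested among 12443 genes, and a gene was called at a Benjamini-Hochberg adjusted p of 0.05 over all 12443. ENO2, the neuronal enolase, averaged 0.243 FPKM and CA9, the hypoxia-induced carbonic anhydrase IX, 0.0882 FPKM, so both were below the filter.

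With palbociclib, 6 of the 30 tested members rose and 19 fell against DMSO, and 5 did not pass. Of all genes tested, 18.7% rose and 31.4% fell in that comparison (50.1% in either direction). The combination raised 3 members and lowered 21, where 21.5% of all genes rose and 35.3% fell (56.8% together). With olaparib, 2 members rose (PFKL and PFKFB4) and 10 fell, where 4.13% of all genes rose and 10.5% fell (14.6% together). The median log2 fold change of the members was −0.09 with olaparib, −0.25 with palbociclib and −0.35 with the combination, and the medians over all genes tested were −0.03, −0.05 and −0.06 in the same order. These 3 comparisons share the DMSO libraries. No olaparib call held in all of the fits that left out a DMSO or an olaparib library, each of which leaves 1 library in that group. Calls over all genes also became fewer in those fits. The median of the members with olaparib was then −0.08 without DMSO library 1 and −0.08 without DMSO library 2. It was −0.06 without olaparib library 1 and −0.11 without olaparib library 2. Without either palbociclib library, which enters the olaparib fit only through the shared spread, 5 members were lower. On quantile-normalised values 2 members rose and 2 fell with olaparib, and on TPM, which gives every library the same sum, 2 rose and 3 fell. Of all 12443 genes, 602 rose and 398 fell on quantile-normalised values, and 939 rose and 473 fell on TPM.

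**Figure D1:**
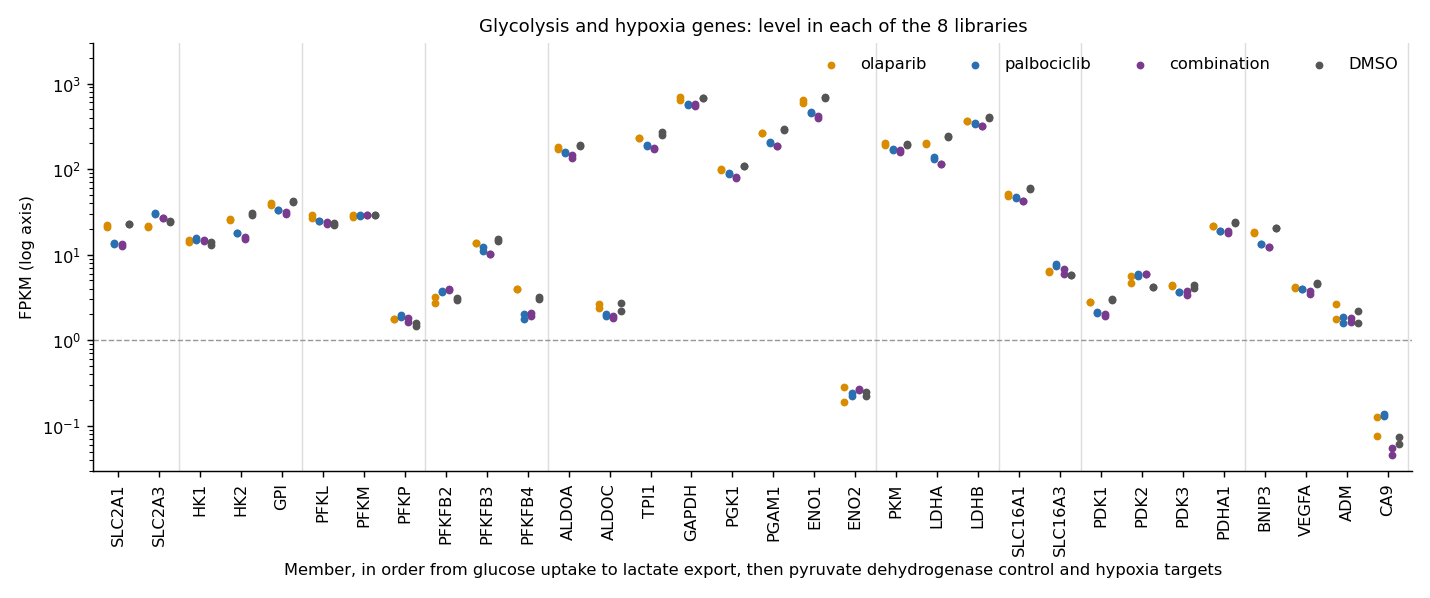
FPKM of the 32 members in each of the 8 libraries (log axis), in pathway order, for olaparib, palbociclib, the combination and DMSO; the dashed line is the filter of 1 FPKM. In DMSO the means run from 685 FPKM for ENO1 and 671 FPKM for GAPDH down to 2.48 FPKM for ALDOC and 1.51 FPKM for PFKP, and ENO2 and CA9 are the 2 members under the filter.

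Promoter sequences were available for 28 of the 32 members, from RefSeq on GRCh38.p14, as 250 bases before to 50 bases after a listed transcription start. Whether that start is used in these cells was not tested. Some windows lie inside the annotated gene, such as that of PGAM1, which starts at base 97427568 in a gene annotated from base 97426160. There was no entry for SLC2A3, PFKFB2, SLC16A1 and VEGFA. The letters ACGTG, read on either strand, form the core of the sites that HIF-1 binds, and CACGTG, which contains ACGTG on both strands, is the E-box of MYC and related factors. The 5 members with the lowest log2 fold change under the combination and the member with the highest (PDK2) are printed 5′ to 3′ on the strand of the gene, with each ACGTG, or CACGT on the other strand, in capitals. They are LDHA (chr11:18394313-18394612, plus strand), HK2 (chr2:74833877-74834176, plus strand), SLC2A1 (chr1:42958819-42959118, minus strand), ENO1 (chr1:8878637-8878936, minus strand), BNIP3 (chr10:131981874-131982173, minus strand) and PDK2 (chr17:50094487-50094786, plus strand).
LDHA: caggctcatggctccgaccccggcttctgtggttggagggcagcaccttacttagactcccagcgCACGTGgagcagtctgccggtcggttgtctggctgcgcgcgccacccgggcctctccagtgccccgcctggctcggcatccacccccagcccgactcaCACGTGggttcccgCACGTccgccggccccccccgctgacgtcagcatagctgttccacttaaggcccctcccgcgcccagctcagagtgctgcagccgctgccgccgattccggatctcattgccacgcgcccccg
HK2: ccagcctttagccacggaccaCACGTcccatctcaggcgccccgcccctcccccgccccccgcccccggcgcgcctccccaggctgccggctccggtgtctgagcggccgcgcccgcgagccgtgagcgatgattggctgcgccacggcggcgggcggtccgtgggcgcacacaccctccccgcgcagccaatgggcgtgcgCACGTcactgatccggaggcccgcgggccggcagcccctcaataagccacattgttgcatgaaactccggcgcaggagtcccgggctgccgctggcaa
SLC2A1: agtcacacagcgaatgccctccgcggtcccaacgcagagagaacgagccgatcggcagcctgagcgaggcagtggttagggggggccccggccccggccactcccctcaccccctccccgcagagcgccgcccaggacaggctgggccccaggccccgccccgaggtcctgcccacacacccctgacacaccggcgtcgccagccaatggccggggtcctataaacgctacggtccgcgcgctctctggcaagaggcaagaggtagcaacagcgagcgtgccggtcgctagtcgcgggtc
ENO1: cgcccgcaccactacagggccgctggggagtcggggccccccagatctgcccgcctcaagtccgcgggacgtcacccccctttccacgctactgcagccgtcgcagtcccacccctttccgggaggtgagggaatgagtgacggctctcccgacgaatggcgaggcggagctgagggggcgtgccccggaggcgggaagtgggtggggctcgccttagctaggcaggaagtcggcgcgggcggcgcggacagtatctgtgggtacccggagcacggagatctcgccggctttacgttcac
BNIP3: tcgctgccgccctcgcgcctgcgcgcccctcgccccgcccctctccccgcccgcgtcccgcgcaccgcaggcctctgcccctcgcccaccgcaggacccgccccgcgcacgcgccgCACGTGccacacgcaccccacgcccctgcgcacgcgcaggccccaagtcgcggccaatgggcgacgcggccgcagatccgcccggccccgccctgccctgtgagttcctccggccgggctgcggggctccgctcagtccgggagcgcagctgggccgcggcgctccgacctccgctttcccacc
PDK2: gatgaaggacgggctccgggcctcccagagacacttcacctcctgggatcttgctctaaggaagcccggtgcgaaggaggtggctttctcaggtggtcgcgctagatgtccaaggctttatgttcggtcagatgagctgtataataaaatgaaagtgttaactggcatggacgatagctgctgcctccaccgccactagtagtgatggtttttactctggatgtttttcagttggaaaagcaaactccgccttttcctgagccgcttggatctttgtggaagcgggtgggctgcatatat

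The LDHA window held 5 matches to ACGTG over both strands, 4 of them in 2 E-boxes. HK2 held 2 matches and BNIP3 held 2, both in 1 E-box, while SLC2A1, ENO1 and PDK2 held 0. Of the 28 member promoters, 11 (39.3%) held at least 1 ACGTG and 6 (21.4%) held at least 2, against 21.6% and 9% of all 27305 promoters, taking the first window listed for each gene. Of the 19 members with a promoter that fell under the combination, 9 (47.4%) held the letters, and of the 7 tested members with a promoter that did not fall, 0 did. A set of 7 is too few to set apart from the 21.6% of all promoters. ENO2 and CA9, which were not tested, each held 1 match. CACGTG stood in 4 of the 28 member promoters (14.3%) and in 7.43% of all, and GCGTG, the other common HIF-1 core, in 15 (53.6%) and in 36.3%. GCGTG stood in 13 of the 19 members that fell (68.4%) and in 2 of the 7 that did not (28.6%). A match describes the letters in this window only, and the sets differ in base composition, which was not matched.

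Glucose uptake split between its transporters. SLC2A1, which encodes GLUT1, the widely expressed glucose transporter, had 21.3 and 22.2 FPKM with olaparib, 13.8 and 13.5 FPKM with palbociclib and 13.4 and 12.5 FPKM with the combination, against 22.9 and 23.0 FPKM in DMSO. Every library that received palbociclib lay below every library that did not. The change against DMSO was −0.71 ± 0.04 with palbociclib and −0.78 ± 0.04 with the combination (log2 ± SE; limma, adjusted p = 5.53e-05 and 2.17e-05), and with olaparib it was −0.08 ± 0.04 and did not pass (adjusted p = 0.278). SLC2A3, which encodes the high-affinity transporter GLUT3, had 21.7 and 21.2 FPKM with olaparib, 31.0 and 29.5 FPKM with palbociclib and 26.7 and 27.1 FPKM with the combination, against 24.5 and 23.8 FPKM in DMSO. It rose by 0.31 ± 0.04 with palbociclib and by 0.15 ± 0.04 with the combination, and fell by 0.16 ± 0.04 with olaparib (limma, adjusted p = 0.000638, 0.0129 and 0.0352). The combination call of SLC2A3 was lost in at least 1 of the 8 fits that left out a library, and reads shared with its near-identical paralogue SLC2A14 make its level uncertain. SLC2A1 shares exon bases with its antisense gene SLC2A1-AS1, and no source states whether reads were counted by strand.

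The hexokinase forms also differed, HK2 falling in all 3 comparisons with DMSO and HK1 in none. HK2, the inducible hexokinase of many tumours, had 25.3 and 25.8 FPKM with olaparib, 17.8 and 17.8 FPKM with palbociclib and 15.4 and 16.1 FPKM with the combination, against 30.4 and 29.4 FPKM in DMSO. The groups did not overlap, and HK2 fell by 0.22 ± 0.04 with olaparib, 0.72 ± 0.04 with palbociclib and 0.89 ± 0.04 with the combination (limma, adjusted p = 0.0168, 4.15e-05 and 1.45e-05). HK1, the hexokinase most tissues express, had 14.1 and 14.7 FPKM with olaparib, 15.6 and 14.9 FPKM with palbociclib and 14.9 and 14.3 FPKM with the combination, against 14.1 and 12.9 FPKM in DMSO. It rose with palbociclib by 0.17 ± 0.05 (limma, adjusted p = 0.0340), a call lost when single libraries were left out, and the combination value of 0.10 ± 0.05 did not pass, except on quantile-normalised values (0.23) and on TPM (0.24). GPI, the isomerase that makes fructose-6-phosphate, had 37.7 and 40.2 FPKM with olaparib, 33.6 and 32.9 FPKM with palbociclib and 29.7 and 31.1 FPKM with the combination, against 42.2 and 41.5 FPKM in DMSO. GPI fell by 0.32 ± 0.04 with palbociclib and by 0.45 ± 0.04 with the combination (limma, adjusted p = 0.000916 and 0.000148).

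At phosphofructokinase, the committed step, 0 of 3 genes passed as lower in any comparison with DMSO. Of all genes tested, 10.5% fell with olaparib, 31.4% with palbociclib and 35.3% with the combination, and 3 genes are too few to set the step apart from these shares. The summed FPKM of its 3 genes was 57.8 ± 3.09 with olaparib, 55.0 ± 0.297 with palbociclib and 54.3 ± 1.61 with the combination, and 53.6 ± 1.11 in DMSO (SD, n = 2 each). PFKL, the liver form, had 26.5 and 29.3 FPKM with olaparib, 24.4 and 24.8 FPKM with palbociclib and 22.8 and 24.2 FPKM with the combination, against 22.1 and 23.5 FPKM in DMSO. It rose with olaparib by 0.28 ± 0.06 (limma, adjusted p = 0.0268), and its values of 0.11 with palbociclib and 0.04 with the combination did not pass, except that they were called higher at 0.26 and 0.25 on quantile-normalised values and at 0.21 and 0.18 on TPM. In addition, PFKL fell by 0.24 ± 0.06 in the combination against olaparib (limma, adjusted p = 0.0151). PFKP, the platelet form, had 1.79 and 1.76 FPKM with olaparib, 1.89 and 2.00 FPKM with palbociclib and 1.64 and 1.8 FPKM with the combination, against 1.57 and 1.45 FPKM in DMSO, and rose with palbociclib by 0.23 ± 0.07 (limma, adjusted p = 0.0316), a call lost when single libraries were left out, while its combination value of 0.12 ± 0.07 was called only on TPM (0.28). PFKM, the muscle form, stayed between 27.3 and 29.4 FPKM in all 8 libraries. No comparison with DMSO passed for it, with values of −0.06, −0.04 and −0.01 for olaparib, palbociclib and the combination, yet PFKM was called higher with palbociclib (0.12) and with the combination (0.21) on quantile-normalised values and with the combination (0.13) on TPM.

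The bifunctional enzymes that set fructose-2,6-bisphosphate, the strongest activator of phosphofructokinase, went 3 ways. PFKFB4 had 3.97 and 3.96 FPKM with olaparib, 1.78 and 2.02 FPKM with palbociclib and 1.91 and 2.10 FPKM with the combination, against 3.16 and 3.02 FPKM in DMSO. It was above DMSO in both olaparib libraries and below DMSO in all 4 libraries with palbociclib. The changes were 0.28 ± 0.07 with olaparib, −0.50 ± 0.07 with palbociclib and −0.45 ± 0.07 with the combination (limma, adjusted p = 0.0369, 0.000947 and 0.00113). PFKFB3, the form with the highest kinase activity, had 13.6 and 13.8 FPKM with olaparib, 12.2 and 11.2 FPKM with palbociclib and 10.1 and 10.2 FPKM with the combination, against 14.5 and 15.3 FPKM in DMSO, and fell by 0.32 ± 0.05 with palbociclib and by 0.51 ± 0.05 with the combination (limma, adjusted p = 0.00185 and 0.000172). PFKFB2, the heart form, had 3.21 and 2.73 FPKM with olaparib, 3.72 and 3.67 FPKM with palbociclib and 3.91 and 3.97 FPKM with the combination, against 2.96 and 3.09 FPKM in DMSO. PFKFB2 rose by 0.22 ± 0.07 with palbociclib and by 0.30 ± 0.07 with the combination (limma, adjusted p = 0.0282 and 0.00751), and only the second call held without each library in turn.

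**Figure D2:**
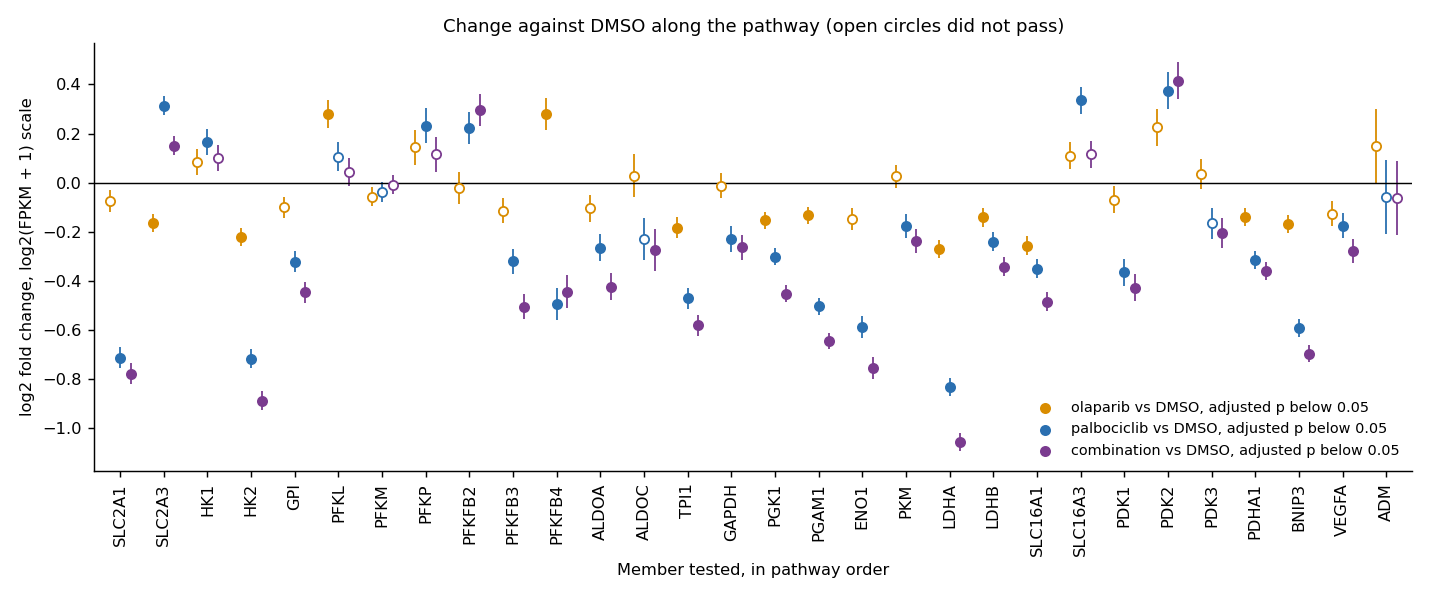
Log2 fold change (log2(FPKM + 1) scale) of the 30 tested members against DMSO, in pathway order, for olaparib, palbociclib and the combination; bars are the SE from limma and open circles did not pass an adjusted p of 0.05. LDHA reaches −0.83 with palbociclib and −1.06 with the combination, while SLC2A3, PFKFB2 and PDK2 lie above 0 in both.

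The block of enzymes from aldolase to enolase, which holds the most abundant transcripts of the route, had a lower summed level with each treatment than in DMSO. Its summed FPKM was 2057 ± 69.6 with olaparib, 1668 ± 37.3 with palbociclib and 1547 ± 57.4 with the combination, and 2211 ± 30.9 in DMSO (SD, n = 2 each). Of its 7 tested genes, 3 fell with olaparib, 6 with palbociclib and 7 with the combination, and 0 rose in these comparisons. Of all genes tested, 10.5% fell with olaparib, 31.4% with palbociclib and 35.3% with the combination. ENO1, enolase 1, had 599 and 638 FPKM with olaparib, 461 and 448 FPKM with palbociclib and 397 and 413 FPKM with the combination, against 678 and 692 FPKM in DMSO. It fell by 0.59 ± 0.05 with palbociclib and by 0.76 ± 0.05 with the combination (limma, adjusted p = 0.000101 and 2.54e-05), and its olaparib value of −0.15 ± 0.05 did not pass (adjusted p = 0.0703). PGAM1, the phosphoglycerate mutase, had 266 and 267 FPKM with olaparib, 209 and 203 FPKM with palbociclib and 185 and 188 FPKM with the combination, against 289 and 296 FPKM in DMSO. PGAM1 fell by 0.13 ± 0.03, 0.50 ± 0.03 and 0.65 ± 0.03 in that order (limma, adjusted p = 0.0455, 7.56e-05 and 1.96e-05). TPI1, triose phosphate isomerase, had 229.7 and 228 FPKM with olaparib, 189.9 and 185 FPKM with palbociclib and 169.8 and 178 FPKM with the combination, against 253 and 268 FPKM in DMSO. TPI1 fell by 0.18 ± 0.04, 0.47 ± 0.04 and 0.58 ± 0.04 in that order (limma, adjusted p = 0.0334, 0.000179 and 4.74e-05).

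Smaller falls were seen in the rest of that block. PGK1, the first ATP-yielding kinase, had 99.5 and 97.7 FPKM with olaparib, 90.7 and 87.1 FPKM with palbociclib and 79.1 and 80.8 FPKM with the combination, against 109.7 and 109.8 FPKM in DMSO. The log2 changes were −0.15 ± 0.03 with olaparib, −0.30 ± 0.03 with palbociclib and −0.45 ± 0.03 with the combination (limma, adjusted p = 0.0324, 0.000483 and 5.88e-05), and the palbociclib call was lost under another scaling. ALDOA, the main aldolase, had 169.6 and 182 FPKM with olaparib, 160.4 and 154 FPKM with palbociclib and 134 and 147 FPKM with the combination, against 187 and 191 FPKM in DMSO. ALDOA fell by 0.27 ± 0.06 with palbociclib and by 0.43 ± 0.06 with the combination (limma, adjusted p = 0.00654 and 0.000597), the palbociclib call being lost under another scaling. GAPDH, the dehydrogenase often used as a reference gene, had 642 and 691 FPKM with olaparib, 581 and 563 FPKM with palbociclib and 539 and 579 FPKM with the combination, against 669 and 673 FPKM in DMSO. GAPDH fell by 0.23 ± 0.05 with palbociclib and by 0.26 ± 0.05 with the combination (limma, adjusted p = 0.00937 and 0.00429), but both calls were lost on quantile-normalised values. The palbociclib call of GAPDH was also lost when single libraries were left out, and 62 annotated processed copies of GAPDH could share its reads. ALDOC, the brain aldolase, had 2.67 and 2.41 FPKM with olaparib, 1.90 and 2.01 FPKM with palbociclib and 1.90 and 1.83 FPKM with the combination, against 2.73 and 2.22 FPKM in DMSO, and fell with the combination by 0.28 ± 0.09 (limma, adjusted p = 0.03), a call lost when single libraries were left out.

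At the end of the route LDHA fell further than LDHB. LDHA had 203 and 198 FPKM with olaparib, 139 and 132 FPKM with palbociclib and 116 and 116 FPKM with the combination, against 240.2 and 243 FPKM in DMSO. No group overlapped another, and the combination libraries were the lowest. LDHA fell by 0.27 ± 0.04 with olaparib, 0.83 ± 0.04 with palbociclib and 1.06 ± 0.04 with the combination (limma, adjusted p = 0.0125, 3.12e-05 and 1.31e-05). LDHB, the form that favours the reverse reaction, had 364 and 365 FPKM with olaparib, 348 and 333 FPKM with palbociclib and 319.6 and 315 FPKM with the combination, against 408 and 397 FPKM in DMSO. LDHB fell by 0.14 ± 0.04, 0.24 ± 0.04 and 0.34 ± 0.04 in that order (limma, adjusted p = 0.0480, 0.00178 and 0.000263). PKM, pyruvate kinase, had 190.0 and 201 FPKM with olaparib, 171 and 168 FPKM with palbociclib and 157 and 169 FPKM with the combination, against 190.0 and 194 FPKM in DMSO. PKM fell by 0.18 ± 0.05 with palbociclib and by 0.24 ± 0.05 with the combination (limma, adjusted p = 0.0197 and 0.00462), but on quantile-normalised values it turned to 0.03 and 0.05 and did not pass, and its olaparib value was called higher at 0.15. The palbociclib call of PKM was also lost when single libraries were left out.

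Lactate export again split by form. SLC16A1, which encodes the transporter MCT1, had 50.8 and 49.0 FPKM with olaparib, 47.6 and 45.9 FPKM with palbociclib and 42.1 and 42.8 FPKM with the combination, against 58.8 and 60.9 FPKM in DMSO. All treated libraries were below both DMSO libraries, with log2 changes of −0.26 ± 0.04, −0.35 ± 0.04 and −0.49 ± 0.04 in that order (limma, adjusted p = 0.0131, 0.000380 and 6.36e-05). SLC16A3, which encodes MCT4, the exporter of strongly glycolytic cells, had 6.38 and 6.32 FPKM with olaparib, 7.44 and 7.75 FPKM with palbociclib and 6.01 and 6.77 FPKM with the combination, against 5.83 and 5.79 FPKM in DMSO. It rose by 0.34 ± 0.06 with palbociclib (limma, adjusted p = 0.00239), while the combination value of 0.12 ± 0.06 did not pass (adjusted p = 0.115) except on TPM, where it was 0.26.

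Of the genes that govern pyruvate dehydrogenase, PDK2 rose while the others fell or did not pass. PDK2, a kinase that inhibits the enzyme, had 4.63 and 5.61 FPKM with olaparib, 5.59 and 5.95 FPKM with palbociclib and 5.97 and 5.96 FPKM with the combination, against 4.23 and 4.21 FPKM in DMSO. It rose by 0.38 ± 0.08 with palbociclib and by 0.42 ± 0.08 with the combination (limma, adjusted p = 0.00560 and 0.00284), and the olaparib libraries, which lay apart from each other, gave 0.23 ± 0.08 and did not pass (adjusted p = 0.0877). PDK1, the HIF-1-responsive kinase, had 2.81 and 2.81 FPKM with olaparib, 2.14 and 2.07 FPKM with palbociclib and 2.01 and 1.94 FPKM with the combination, against 3.01 and 2.99 FPKM in DMSO. PDK1 fell by 0.37 ± 0.05 with palbociclib and by 0.43 ± 0.05 with the combination (limma, adjusted p = 0.00150 and 0.000538). PDK3, another kinase of the family, had 4.41 and 4.33 FPKM with olaparib, 3.65 and 3.69 FPKM with palbociclib and 3.36 and 3.74 FPKM with the combination, against 4.03 and 4.46 FPKM in DMSO, and fell with the combination by 0.21 ± 0.06 (limma, adjusted p = 0.0254), a call lost when single libraries were left out. PDHA1, the catalytic alpha subunit that these kinases phosphorylate, had 21.4 and 21.7 FPKM with olaparib, 19.0 and 18.9 FPKM with palbociclib and 18.0 and 18.7 FPKM with the combination, against 23.4 and 24.3 FPKM in DMSO. PDHA1 fell by 0.14 ± 0.04, 0.32 ± 0.04 and 0.36 ± 0.04 in that order (limma, adjusted p = 0.0480, 0.000513 and 0.000191).

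Among the hypoxia targets outside glycolysis, BNIP3 fell and the classic marker CA9 was barely detected. BNIP3, a mitochondrial protein that promotes mitophagy, had 18.6 and 17.8 FPKM with olaparib, 13.2 and 13.3 FPKM with palbociclib and 12.2 and 12.4 FPKM with the combination, against 20.7 and 20.4 FPKM in DMSO. BNIP3 fell by 0.17 ± 0.04, 0.59 ± 0.04 and 0.70 ± 0.04 in that order (limma, adjusted p = 0.0290, 5.61e-05 and 1.86e-05), and 39 annotated processed copies could share its reads. VEGFA, the angiogenic growth factor, had 4.03 and 4.24 FPKM with olaparib, 3.93 and 3.99 FPKM with palbociclib and 3.5 and 3.74 FPKM with the combination, against 4.65 and 4.56 FPKM in DMSO. VEGFA fell by 0.18 ± 0.05 with palbociclib, a call lost without single libraries, and by 0.28 ± 0.05 with the combination (limma, adjusted p = 0.0223 and 0.00249). ADM, the peptide adrenomedullin, ranged from 1.57 to 2.62 FPKM with overlapping groups, and 0 of its comparisons passed. CA9 lay between 0.0460 and 0.136 FPKM, on 2 to 7 recovered reads per library, and ENO2 between 0.190 and 0.287 FPKM on 19 to 35 reads.

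**Figure D3:**
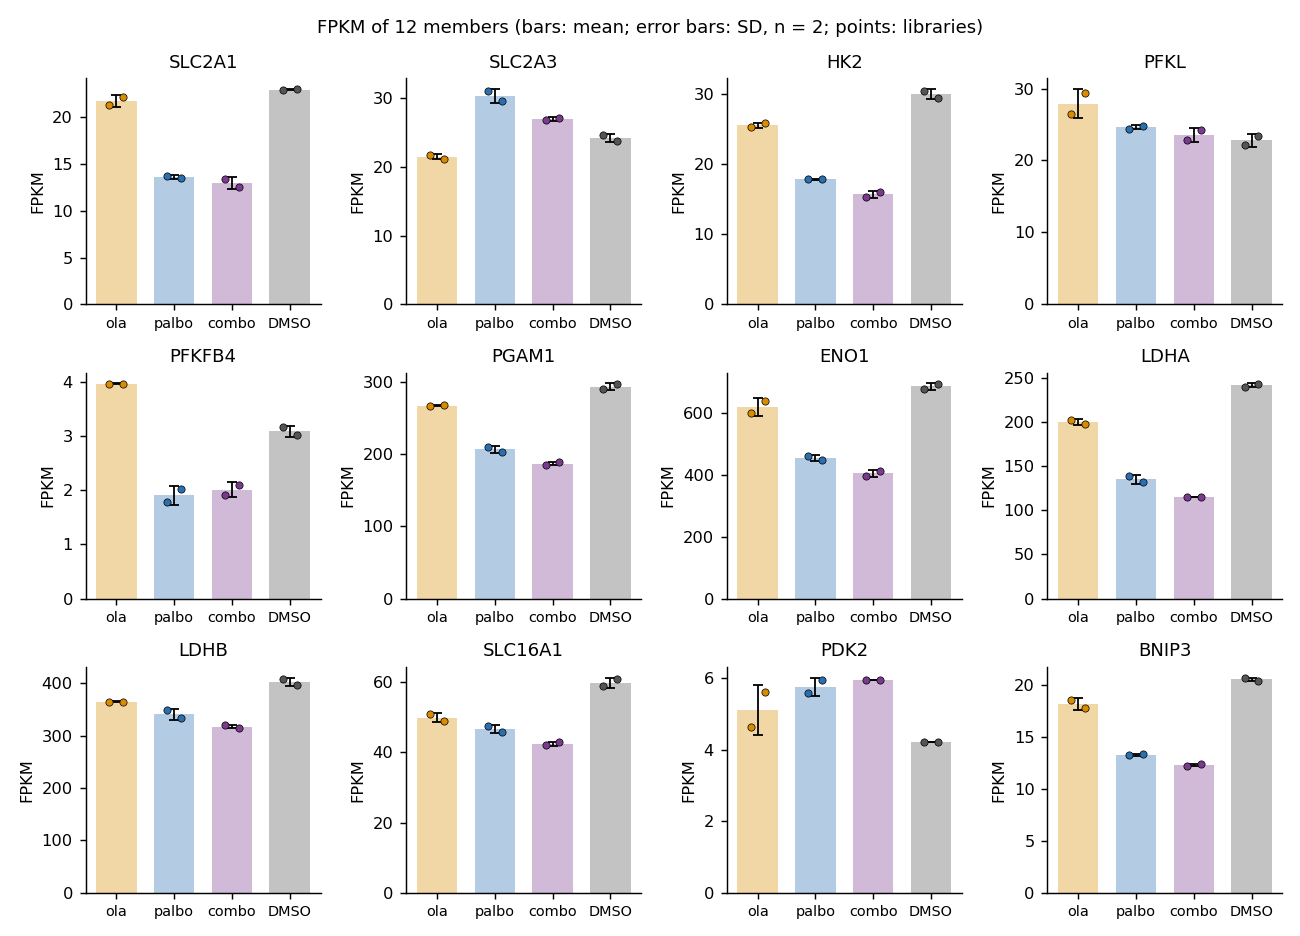
FPKM of 12 members by treatment (ola, olaparib; palbo, palbociclib; combo, combination; DMSO); bars are means, error bars the SD over 2 libraries and points the libraries. LDHA stands at 116 and 116 FPKM with the combination against 240.2 and 243 FPKM in DMSO, and PFKFB4 is above DMSO with olaparib and below it in the 4 libraries with palbociclib.

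Summed over all 32 members, the transcripts took 1.11% of the FPKM of a library with olaparib, 0.945% with palbociclib and 0.899% with the combination, and 1.14% in DMSO. The sums were 3133 ± 79.8 FPKM with olaparib, 2601 ± 58.6 FPKM with palbociclib and 2410 ± 67.6 FPKM with the combination, and 3382 ± 28.9 FPKM in DMSO (SD, n = 2 each). A share of the library total does not change when a library is rescaled. Over all genes, TPM moved the median log2 fold change of the combination by 0.12, to 0.06 in place of −0.06, and the median of the members relative to it was −0.29 on both scales. Relative to the median of all genes, LDHA stood at −0.995 and HK2 at −0.83 in the combination. The split of calls over all genes depended on the scaling: the share of called genes that were higher was 28.2% with olaparib, 37.3% with palbociclib and 37.8% with the combination as deposited, 60.2%, 46.5% and 46.9% on quantile-normalised values, and 66.5%, 56.1% and 57.4% on TPM. Of the members, 6 rose and 17 fell with palbociclib on quantile-normalised values and 7 rose and 17 fell on TPM. With the combination 6 members rose and 19 fell on the first and 8 rose and 18 fell on the second. Of all 12443 genes, 2728 rose and 3136 fell with palbociclib on quantile-normalised values, and 3437 rose and 2691 fell on TPM. With the combination 3179 of all genes rose and 3604 fell on the first, and 4068 rose and 3014 fell on the second.

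No member passed when olaparib was added to palbociclib. In the combination against palbociclib, 0 of 30 members passed in limma, where 0.0241% of all genes were called and 0.0161% were lower. At an unadjusted p under 0.05 there were 14 members, and the share of all genes at that threshold was not counted. Voom on the recovered reads called 3 members lower (ENO1, LDHA and SLC16A3), among 195 genes that it called lower. The median of the members was −0.10, against −0.02 over all genes tested, and LDHA was at −0.22 with a 95% interval of −0.31 to −0.14 (limma, adjusted p = 0.128). When palbociclib was added to olaparib most members did: in the combination against olaparib 2 members rose (SLC2A3 and PFKFB2) and 22 fell, where 17.0% of all genes rose and 27.4% fell (44.4% together). LDHA fell by 0.79 ± 0.04, PFKFB4 by 0.73 ± 0.07 and SLC2A1 by 0.70 ± 0.04 in it (limma, adjusted p = 4.92e-05, 0.000289 and 7.90e-05). The departure from additivity (the change on adding olaparib to palbociclib, less its change alone) called 0 of 30 members in limma, where 0.00804% of all genes were called. Its unadjusted p was under 0.05 for 4 members, PFKL at −0.34, SLC16A3 at −0.33, PFKP at −0.26 and PFKFB4 at −0.23, again with no share of all genes counted. Voom called PFKL (−0.36, adjusted p = 0.0313), among 50 genes that it called lower.

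Within 7 families the balance between forms differed with palbociclib. The share of 1 form in the summed FPKM of its family was taken for 9 families and compared between the 4 libraries with palbociclib (alone or in the combination) and the 4 without it by a two-sided exact permutation test, whose smallest p is 0.0286. SLC2A3 made up 68.2% ± 1.16 of SLC2A1 and SLC2A3 in libraries with palbociclib and 50.5% ± 1.20 in those without (SD, n = 4 each; exact p = 0.0286). HK2 made up 52.9% ± 1.49 of the hexokinases with palbociclib and 66.5% ± 2.89 without (SD, n = 4 each; exact p = 0.0286). LDHA made up 27.6% ± 0.997 of LDHA and LDHB with palbociclib and 36.5% ± 1.28 without (SD, n = 4 each; exact p = 0.0286). PFKFB4 took 11.7% with palbociclib and 17.0% without, PDK1 took 17.7% of PDK1 to PDK3 and 24.5%, and SLC16A3 took 13.5% of the lactate exporters and 10.1%. In each of these families all 4 libraries with palbociclib lay on one side of the 4 without, and so did ENO2, at 0.0581% of the enolases with palbociclib and 0.0364% without, on few reads. These 7 families reached the smallest p and a Benjamini-Hochberg value of 0.0367 over the 9. The libraries without palbociclib pool DMSO and olaparib, which differed in some shares. PFKFB4 took 15.37% and 14.11% in DMSO and 19.13% and 19.37% with olaparib, and PDK1 took 26.72% and 25.62% and then 23.68% and 22.04%. SLC16A3 took 9.018% and 8.691% in DMSO and 11.15% and 11.42% with olaparib, and HK2 took 68.33% and 69.5% and then 64.25% and 63.74%. PFKP (3.35% with palbociclib and 2.95% without, exact p = 0.0571, adjusted 0.0643) and ALDOC (1.27% with and 1.36% without, exact p = 0.4, adjusted 0.4) did not pass. The shares come from the same FPKM values as the single-gene tests and are no independent support for them. How often other gene pairs separate in this way was not counted, and 50.1% and 56.8% of all genes were called with palbociclib and with the combination against DMSO. ENO2 itself averaged 0.238 FPKM with olaparib, 0.233 FPKM with palbociclib, 0.264 FPKM with the combination and 0.236 FPKM in DMSO, so its share mostly follows the fall of ENO1.

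**Figure D4:**
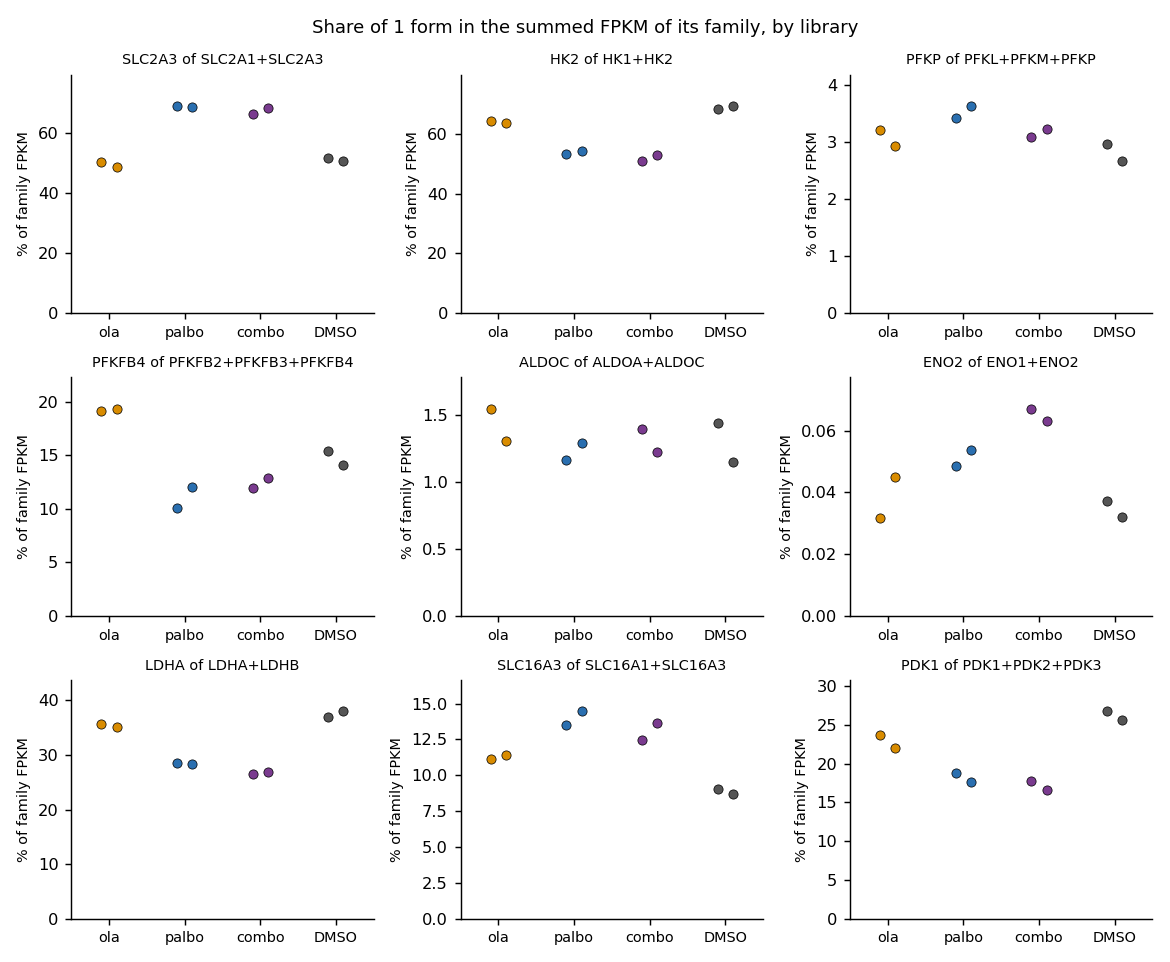
Share of 1 form in the summed FPKM of its family (percent) in each of the 8 libraries, for 9 families (ola, olaparib; palbo, palbociclib; combo, combination; DMSO). In 7 panels the 4 libraries with palbociclib lie wholly above or below the 4 without; PFKP and ALDOC overlap.

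Other genes of the pathway were followed in 5 lists of 73 genes, of which 57 were tested. Of all genes tested, 4.13% rose and 10.5% fell with olaparib, 18.7% rose and 31.4% fell with palbociclib, and 21.5% rose and 35.3% fell with the combination. Most genes of the routes that branch off glycolysis or follow it fell with palbociclib and with the combination. Of 10 tested genes of pyruvate entry to the mitochondrion, 2 fell with olaparib, 9 fell and 1 rose with palbociclib, and 8 fell and 1 rose with the combination, with list medians of −0.09, −0.26 and −0.32. DLAT, the E2 subunit of pyruvate dehydrogenase, had 37.3 and 36.8 FPKM with olaparib, 27.0 and 26.5 FPKM with palbociclib and 24.3 and 23.3 FPKM with the combination, against 42.7 and 41.9 FPKM in DMSO, and fell by 0.80 ± 0.04 with the combination (limma, adjusted p = 1.45e-05). PDP1, the phosphatase that reactivates pyruvate dehydrogenase, rose by 0.24 ± 0.08 with the combination (limma, adjusted p = 0.0358), and PDHX fell by 0.20 ± 0.05 with olaparib (limma, adjusted p = 0.0368). PDHX averaged 13.6 FPKM with olaparib, 13.2 FPKM with palbociclib and 12.7 FPKM with the combination, against 15.7 FPKM in DMSO. In the pentose phosphate and serine branches 4 of 11 fell with olaparib, 8 fell and 1 rose with palbociclib, and 9 fell and 1 rose with the combination, with medians of −0.12, −0.28 and −0.41. RPIA, ribose-5-phosphate isomerase, fell by 0.32 ± 0.04 with olaparib, 0.57 ± 0.04 with palbociclib and 0.70 ± 0.04 with the combination (limma, adjusted p = 0.0113, 8.26e-05 and 2.38e-05), while PGLS, the lactonase of the same route, rose by 0.33 ± 0.07 and 0.41 ± 0.07 with palbociclib and the combination (limma, adjusted p = 0.00825 and 0.00242). SHMT2, the mitochondrial serine hydroxymethyltransferase, fell by 0.17 ± 0.04 with olaparib (limma, adjusted p = 0.0426). It averaged 30.4 FPKM with olaparib and was lower still with palbociclib (24.5 FPKM) and the combination (22.5 FPKM), against 34.3 FPKM in DMSO.

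TXNIP, which binds thioredoxin and draws glucose transporters off the cell surface, had the highest log2(FPKM + 1) fold change among the 57 tested genes of these lists under palbociclib and the combination. It had 3.35 and 3.41 FPKM with olaparib, 5.47 and 6.24 FPKM with palbociclib and 6.10 and 6.95 FPKM with the combination, against 2.00 and 2.03 FPKM in DMSO. The groups with either drug lay above DMSO without overlap, and TXNIP rose by 0.54 ± 0.07, 1.18 ± 0.07 and 1.32 ± 0.07 in that order (limma, adjusted p = 0.0125, 6.07e-05 and 2.24e-05). It belongs to the list of other isoforms and regulators, of whose 12 tested genes 1 rose and 1 fell with olaparib, 5 rose and 2 fell with palbociclib, and 3 rose and 3 fell with the combination. With the combination that is 25% either way, where 21.5% of all genes rose and 35.3% fell. At the low end of that list ADPGK fell by 0.23 ± 0.06 with olaparib (limma, adjusted p = 0.0377) and PGM1, phosphoglucomutase, fell by 0.26 ± 0.04 with palbociclib and 0.32 ± 0.04 with the combination (limma, adjusted p = 0.00186 and 0.000533).

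Called genes of the oxygen-sensing machinery were mostly lower, as were called genes over all genes tested, and the remaining hypoxia targets moved both ways. Of all genes tested, 4.13% rose and 10.5% fell with olaparib, 18.7% rose and 31.4% fell with palbociclib, and 21.5% rose and 35.3% fell with the combination. Of 10 tested genes of the HIF machinery, 2 fell with olaparib, 5 with palbociclib and 6 with the combination, and ARNT, the partner of HIF-1 alpha, was the 1 that rose, by 0.16 ± 0.04 with the combination (limma, adjusted p = 0.0126). HIF1A itself had 40.1 and 37.4 FPKM with olaparib, 38.3 and 38.2 FPKM with palbociclib and 37.1 and 36.2 FPKM with the combination, against 41.8 and 42.8 FPKM in DMSO, and fell by 0.14 ± 0.04 with palbociclib and by 0.20 ± 0.04 with the combination (limma, adjusted p = 0.0255 and 0.00475). HIF-1 is controlled mainly through the stability of its protein, which was not measured. RBX1, the RING subunit of the ligase that marks HIF-1 alpha for breakdown, fell by 0.50 ± 0.06 with palbociclib and 0.58 ± 0.06 with the combination (limma, adjusted p = 0.000457 and 0.000161). With olaparib 2 other parts of that ligase fell, the scaffold CUL2 by 0.19 ± 0.03 and the adaptor ELOC by 0.18 ± 0.05 (limma, adjusted p = 0.0178 and 0.0438). Both were lower still with the other treatments. CUL2 averaged 14.6 FPKM with olaparib, 13.3 FPKM with palbociclib and 12.8 FPKM with the combination, against 16.8 FPKM in DMSO. ELOC averaged 22.3, 19.7 and 18.4 FPKM in that order, against 25.3 FPKM in DMSO. Of 14 other hypoxia targets, 2 rose and 1 fell with olaparib, 4 rose and 4 fell with palbociclib, and 3 rose and 6 fell with the combination, with list medians of −0.01, −0.145 and −0.05 against −0.03, −0.05 and −0.06 over all genes. As shares, 28.6% rose and 28.6% fell with palbociclib, and 21.4% rose and 42.9% fell with the combination, not far from those of all genes for a list of 14. BNIP3L, the paralogue of BNIP3, rose by 0.44 ± 0.06 with the combination, MXI1, a MAX-binding antagonist of MYC, rose by 0.41 ± 0.06 with palbociclib, and STC2, a secreted glycoprotein, fell by 0.82 ± 0.06 with the combination (limma, adjusted p = 0.000576, 0.00130 and 5.67e-05). With olaparib MXI1 rose by 0.26 ± 0.06 and P4HA1, a collagen prolyl hydroxylase, fell by 0.19 ± 0.04 (limma, adjusted p = 0.0315 and 0.0294).

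**Figure D5:**
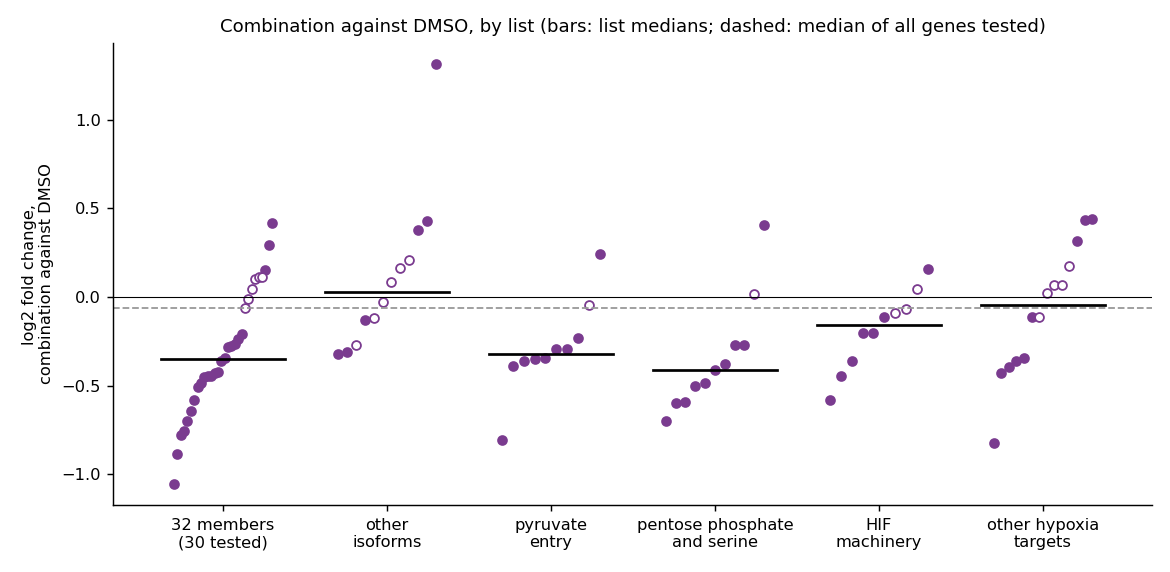
Log2 fold change (log2(FPKM + 1) scale) of each tested gene in the combination against DMSO, for the 32 members and 5 lists of other pathway genes; filled points passed an adjusted p of 0.05, bars are list medians and the dashed line is the median of all genes tested (−0.06). The members, pyruvate entry and the pentose phosphate and serine branches lie mostly below the line, whereas TXNIP stands at 1.32 above the other isoforms.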

How the data were processed

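The authors deposited 1 table of FPKM values for 8 libraries. The NEBNext Ultra kit was used on polyA RNA, per the labels' protocols. Per the submitters' processing notes, CASAVA 1.8, STAR 2.5.1b and HTSeq 0.6.0 were used with the build GRCh38, with no role or order stated; the annotation and the strand setting are not given in the sources used here. Symbols and exon lengths came from GENCODE v29. Multiplying the FPKM values the authors deposited by these lengths and by 1 factor per library gave whole reads, within 0.01 reads, in every library for 28635 genes (90.3%), and a searched length did so for the other 3086. These reads gave depths of 20564735 to 34053342 per library and served only for depth and for the voom alternative. The scaling of the deposited values equalled median-of-ratios size factors. Within each group the libraries differed beyond counting error (chi-square per degree of freedom of 2.27 to 3.77).

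The test was limma 3.58.1 (R 4.3.3) on log2(FPKM + 1) with a trend, all 8 libraries in 1 fit, 4 residual and 3.01 prior degrees of freedom, and Benjamini-Hochberg adjustment over the 12443 genes with a mean of at least 1 FPKM; 19278 genes were below it. Each fit gave 6 comparisons. No exact test was made between 2 groups, since its smallest p is 0.333. Isoform shares were tested with exact permutations in scipy 1.17.1. The members and lists were chosen with earlier results of these data known. All 32 members were named, and of each other list the called gene with the highest and the one with the lowest log2 fold change in each comparison with DMSO. Of the members, 14 have annotated processed copies and 22 share exon bases with another gene, so their levels are uncertain. Alternatives were a pseudocount of 0.1, no filter, quantile normalisation, TPM, voom on the recovered reads, a replicate block and leaving out each library. The limma fit was also run on simulated reads in which few genes changed, all upward and with palbociclib alone. Those settings differ from these data, and no result here rests on that run.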

Additional observations from a re-analysis of the deposited data

How the results depend on the processing

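Counts of called members depended on the scaling and the filter as follows. Testing all genes with no filter left 0 members higher and 3 lower with olaparib, against 2 and 10, and 3 higher with palbociclib, against 6. Over all genes it called 165 higher and 436 lower with olaparib, against 514 and 1307, and 2103 higher with palbociclib, against 2324. Quantile normalisation left 2 members lower with olaparib and gave 6 higher with the combination. TPM left 3 lower with olaparib and gave 8 higher with the combination and 4 higher in the combination against olaparib. In that last comparison TPM called 2913 of all genes higher, against 2110 as deposited. Voom called 3 members lower in the combination against palbociclib, among 195 genes lower, and 1 lower in the departure from additivity, among 50 genes lower. It also called ENO1 (−0.15) and VEGFA (−0.15) lower and PDK2 (0.28) higher with olaparib. PKM turned to 0.0321 with palbociclib and 0.0478 with the combination under quantile normalisation. PFKM, below 0 and not called as deposited, was 0.12 and 0.21 under quantile normalisation and 0.13 with the combination under TPM. The cause was not tested.

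Leaving out each library in turn gave 0 to 2 members higher and 0 to 10 lower with olaparib, 3 to 6 higher and 16 to 20 lower with palbociclib, 2 to 4 higher and 19 to 21 lower with the combination, and 2 to 3 higher and 17 to 21 lower in the combination against olaparib. Palbociclib calls of higher members fell to 3 without DMSO library 2 or either palbociclib library. Of the calls, 0 of 12 with olaparib held in all 8 of these fits, against 16 of 19 lower and 3 of 6 higher with palbociclib and 19 of 21 lower and 2 of 3 higher with the combination. Over all alternatives, 14 lower calls with palbociclib and 17 with the combination held.

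Libraries with the same replicate number did not deviate together (correlations of −0.05 to 0.03 over 12443 genes), so the numbers were not taken as pairs. With the number as a replicate block in limma every count of called members was the same. Permuting isoform shares within the replicate block keeps their differences of 17.8, −13.6, −5.27, 0.0217, −8.92, 3.46 and −6.81 percentage points (SLC2A3, HK2, PFKFB4, ENO2, LDHA, SLC16A3 and PDK1), but its smallest p is 0.0556, so none can pass. With 2 libraries a group, small changes such as those of olaparib are not settled at this depth of replication. Leaving out a DMSO or olaparib library also cut the olaparib calls over all genes, so the lost calls are not particular to the members.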
